A study of Mus musculus with 9 samples.

Results

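The genes described here encode the network proteins of the basement membrane: the 6 chains of type IV collagen (Col4a1 to Col4a6), the nidogens (Nid1 and Nid2) and perlecan (Hspg2). They were taken by gene symbol from the deposited table and are 9 of its 24453 genes. RNA sequencing was performed on 9 libraries in 3 groups of 3, each library made from cells pooled from 3 to 5 C57BL/6J mice. Steady-state hepatic stellate cells (HSCs), the vitamin A-storing pericytes of the liver, were separated by density gradient from healthy livers of wild-type mice. CCl4-fib were activated fibroblasts from Col1a2-GFP Tg mice that received carbon tetrachloride 2 times a week for 8 weeks. NASH-fib were activated fibroblasts from MC-COL mice, which carry the same transgene on a melanocortin 4 receptor-deficient (MC4R-KO) background, after 20 weeks of Western diet from 8 weeks of age. The ages of the other mice are not given in the sources used here. Both fibroblast groups were sorted as CD45- GFP+ cells, in which the collagen α2(I) promoter drives GFP, so that the sort selects on the activity of a collagen promoter. The HSCs carried no stated transgene and were not sorted on GFP, so the isolation method cannot be told apart from the difference between HSCs and either fibroblast group, nor genotype and diet from that between the fibroblast groups. The pools are separate samples, and p-values measure the spread between them.

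A basement membrane is a sheet of matrix on which epithelial and endothelial cells rest and which wraps muscle, fat and mural cells. Laminins and type IV collagen each polymerize into a network, nidogens link the networks, and perlecan, a large heparan sulfate proteoglycan, binds to them and holds growth factors. Collagen IV chains leave the cell as trimers of fixed make-up: chains of Col4a1 and Col4a2 combine and are found in nearly every basement membrane, whereas chains of Col4a3 and Col4a4 combine with that of Col4a5, and Col4a6 also combines with Col4a5, in membranes of fewer tissues such as kidney and smooth muscle. In the healthy liver the space of Disse, where HSCs lie, holds basement membrane proteins without a continuous sheet. The collagen IV genes lie in head-to-head pairs, each pair transcribed outward from a shared region.

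The distance between the start sites differed between the 3 pairs. On the mm10 build, Col4a1 (NM_009931) lies at chr8:11198423-11312826 on the minus strand and Col4a2 (NM_009932) at chr8:11312805-11449287 on the plus strand, and their first exons share 22 bases. Col4a3 (NM_007734, chr1:82586921-82722059, plus) and Col4a4 (NM_007735, chr1:82450723-82586849, minus) start with 71 bases between them. Col4a5 (NM_001163155, chrX:141475419-141689235, plus) and Col4a6 (NM_053185, chrX:141165403-141474076, minus) start with 1342 bases between them. Nid1 (NM_010917) lies at chr13:13437602-13512275, Nid2 (NM_008695) at chr14:19751257-19811787 and Hspg2 (NM_008305) at chr4:137468803-137570630, all on the plus strand and each alone. The sequences around the paired starts are shown, and whether a region drives both genes of a pair was not tested. They are from RefSeq promoter windows on GRCm38.p6, written 5′ to 3′, with GC boxes (GGGCGG or CCGCCC) and CCAAT boxes (CCAAT or ATTGG) in capitals.
Col4a1 and Col4a2 starts, chr8:11312801-11312830, plus strand: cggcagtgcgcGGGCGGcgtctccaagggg
Col4a3 and Col4a4 starts, chr1:82586835-82586935, minus strand: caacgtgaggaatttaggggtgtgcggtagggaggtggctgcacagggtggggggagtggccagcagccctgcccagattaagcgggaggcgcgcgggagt
Col4a5 upstream, chrX:141475169-141475418, plus strand: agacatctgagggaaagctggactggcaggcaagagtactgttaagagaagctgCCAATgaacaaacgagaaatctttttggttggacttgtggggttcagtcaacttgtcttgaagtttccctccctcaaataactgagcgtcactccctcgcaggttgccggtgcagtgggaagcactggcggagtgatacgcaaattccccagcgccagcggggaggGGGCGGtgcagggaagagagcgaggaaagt
Col4a6 upstream, chrX:141474077-141474326, minus strand: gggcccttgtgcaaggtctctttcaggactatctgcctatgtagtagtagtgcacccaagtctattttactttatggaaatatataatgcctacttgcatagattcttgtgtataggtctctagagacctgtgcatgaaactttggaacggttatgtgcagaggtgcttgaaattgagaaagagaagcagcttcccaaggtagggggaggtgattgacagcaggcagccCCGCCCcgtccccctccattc
The 30 bases over the Col4a1 and Col4a2 starts held a GC box inside the 22 bases that both first exons share. Neither box was found in the 101 bases from the first 15 bases of Col4a4 to the first 15 of Col4a3. The 250 bases upstream of Col4a5 held 1 of each, and those upstream of Col4a6 held 1 GC box. The middle of the 1342 bases between these starts lies in neither stretch and was not searched.

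Promoter windows of 300 bases (250 before to 50 after the start) were matched for 7 of the 9 genes: Col4a1, Col4a2, Col4a4, Col4a5, Col4a6, Nid1 and Hspg2. Their GC content was 74% for Col4a1, 73.7% for Col4a2, 70.3% for Hspg2, 64.7% for Nid1 and 63.3% for Col4a4. Col4a5 with 52.7% and Col4a6 with 48.3% lay lower, the former equal to the median of 32851 mouse promoters (52.7%, quartiles 45.7% and 61.7%). The observed over expected CpG ratio was 0.902 for Col4a1, 0.818 for Col4a2, 0.489 for Col4a4, 0.561 for Col4a5 and 0.172 for Col4a6, against a median of 0.384 over all promoters. Searched on both strands, a GC box occurred in 6 of the 7 windows and in 35.7% of all promoters, with 5 matches in the Hspg2 window. A CCAAT box occurred in 4 of 7 (Col4a1, Col4a2, Col4a5 and Nid1) and in 37.4% of all promoters. The windows of Col4a1 and Col4a2 overlap, so the same letters can be counted in both. TATAAA was in none of the 7 and in 13.6% of all promoters.

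Libraries held 3071070 to 3825522 reads on genes in HSCs, 4687349 to 5634273 in CCl4-fib and 3289758 to 5021156 in NASH-fib. Values are read counts on exons, scaled by 1 factor per library to a common total and called normalized values here. A read was worth between 0.794 and 1.46 of them. Levels of different genes were compared only per length, as the reads per exon length and per library total of reads on genes that are usual for this assay (RPKM). Quiescent stellate markers summed to 34528.7 to 43230.4 in HSCs, 4670.1 to 7865.5 in CCl4-fib and 2480.8 to 5390.1 in NASH-fib. NASH-fib replicate 1, the shallowest NASH-fib library, stood apart from the other two in several members, and values without it are given for Col4a1, Col4a3, Col4a4, Nid1 and the ratios of Col4a1 over Col4a2 and Col4a3 over Col4a4. In these bulk pools, fewer cells of a type and less RNA per cell cannot be told apart.

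Per length, Nid1 and Col4a1 led the set in every group. In HSCs the order of mean RPKM was Nid1 (115 ± 36.6, SD, n = 3), Col4a1 (50.7 ± 21.7), Col4a2 (23.1 ± 7.86), Nid2 (6.53 ± 1.56), Hspg2 (2.25 ± 0.253), Col4a3 (1.68 ± 0.679) and Col4a4 (0.506 ± 0.393), with Col4a5 (0.323 ± 0.103) and Col4a6 (0.320 ± 0.174) last. Among neighbours in that order the ranges overlapped for Col4a1 and Col4a2, Hspg2 and Col4a3, Col4a4 and Col4a5, and Col4a5 and Col4a6, and did not overlap for the others. In CCl4-fib Col4a1 (75.1 ± 14.9) and Nid1 (62.8 ± 13.6) overlapped at the top. Then came Col4a2 (35.9 ± 2.94), Col4a5 (28.3 ± 5.84), Col4a6 (18.7 ± 2.37), Nid2 (15.3 ± 3.25), Hspg2 (5.92 ± 1.0), Col4a3 (3.66 ± 0.915) and Col4a4 (1.15 ± 0.568), of which only the neighbours Col4a6 and Nid2 overlapped. In NASH-fib the order was Nid1 (73.2 ± 26.8), Col4a1 (34.0 ± 16.9), Col4a3 (18.8 ± 11.4), Col4a2 (18.6 ± 5.6), Col4a6 (16.9 ± 4.69), Col4a5 (14.96 ± 4.86), Col4a4 (6.92 ± 2.77), Nid2 (5.49 ± 2.64) and Hspg2 (1.95 ± 0.427). There only Nid1 and Col4a1, Col4a5 and Col4a4, and Nid2 and Hspg2 were neighbours whose ranges did not overlap.

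**Figure D1:**
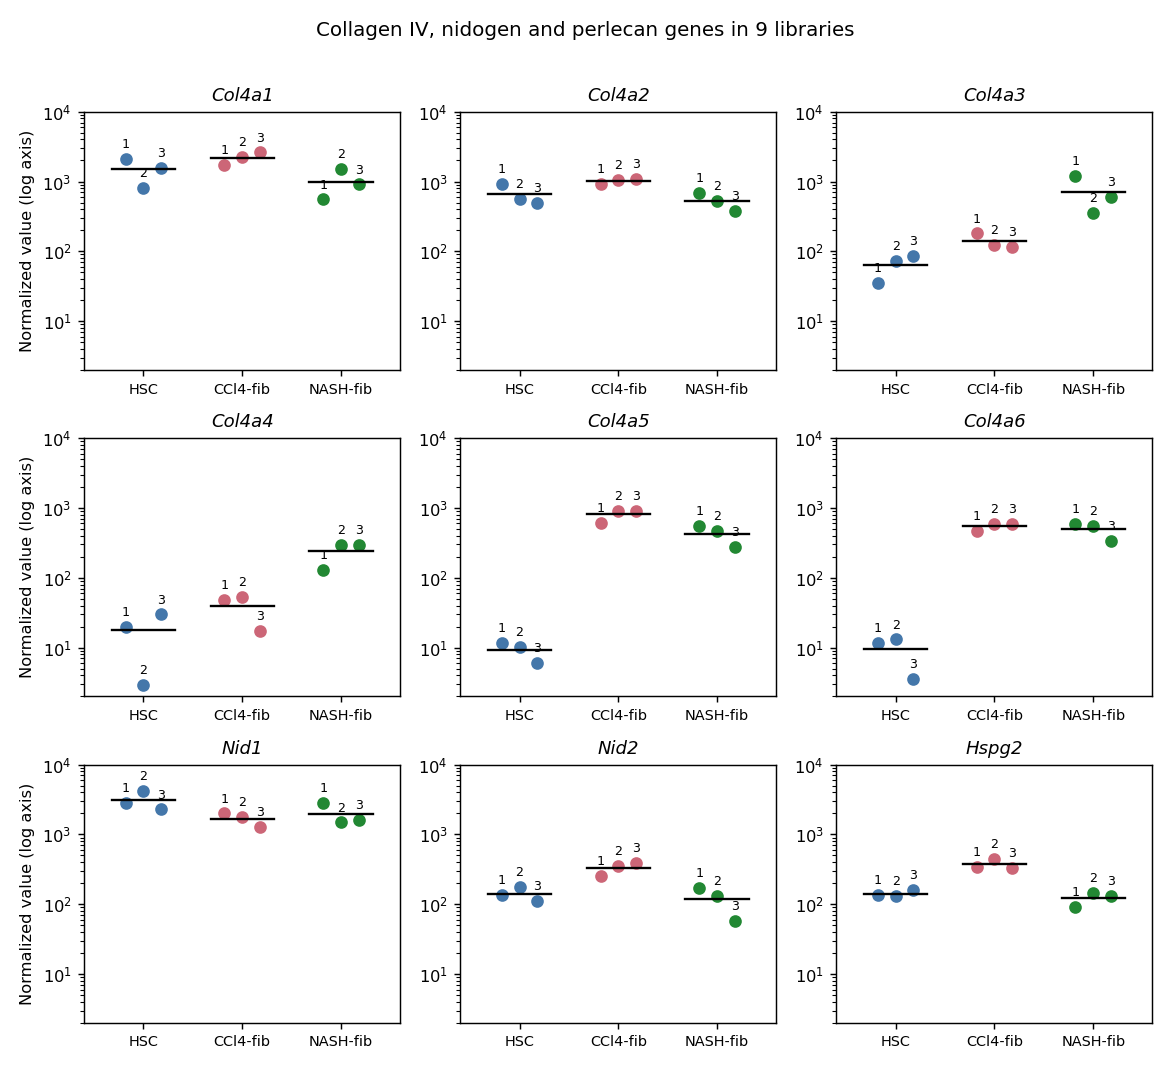
Normalized value of each gene (log axis) in the 9 libraries, grouped as HSC, CCl4-fib and NASH-fib; points are libraries marked with their replicate number, and black lines are group means. Col4a5 and Col4a6 lay at 3.59 to 13.1 in HSCs and at 276 to 914 in the fibroblast libraries, whereas Col4a1, Col4a2 and Nid1 stayed between 374 and 4200 in all 9.

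Col4a5 and Col4a6, whose chains form the collagen IV of smooth muscle and other selected membranes, were nearly silent in HSCs and abundant in both fibroblast groups. Col4a5 had normalized values of 11.7, 10.2 and 5.98 in the HSC libraries, which are 10, 7 and 5 reads. It had 619, 914 and 906 in CCl4-fib. The NASH-fib values were 549, 467 and 276. All 6 fibroblast libraries lay above the 3 HSC libraries, and the CCl4-fib libraries lay above the NASH-fib libraries. The mean was 87.6-fold higher in CCl4-fib than in HSCs (log2 fold change 6.33, SE 0.41, adjusted p = 1.15e-05 by limma with Benjamini-Hochberg adjustment over the 13651 genes tested) and 46.4-fold higher in NASH-fib (5.38, SE 0.41, adjusted p = 3.35e-05). The folds rest on few HSC reads, and log2 fold changes are on the log2(value + 1) scale, which understates them for low genes.

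Col4a6 had normalized values of 11.7, 13.1 and 3.59 in HSCs (10, 9 and 3 reads) and 471, 592 and 593 in CCl4-fib. In NASH-fib it stood at 598, 556 and 340. Here too the HSC libraries lay below all others, but the fibroblast groups overlapped. The mean was 58.4-fold higher in CCl4-fib than in HSCs (log2 fold change 5.88, SE 0.48, adjusted p = 3.28e-05 by limma) and 52.6-fold higher in NASH-fib (5.69, SE 0.48, adjusted p = 4.56e-05). Between the fibroblast groups neither gene passed: the log2 difference of NASH-fib from CCl4-fib was -0.95 for Col4a5 (95% interval -1.86 to -0.04, adjusted p = 0.158 by limma) and -0.18 for Col4a6 (-1.24 to 0.88, adjusted p = 0.825). The 4 calls against HSCs held in each of 20 alternative fits. The labels of the libraries begin with numbers such as 11-3, read here as a day, and do not say what they mark. Within the libraries labelled 11-3, 1 of each group, the log2 differences of Col4a5 and Col4a6 from HSC were 5.79 and 5.07 in CCl4-fib. In NASH-fib they were 5.62 and 5.41. Within the day 11-4, which holds 1 library each of HSC and CCl4-fib, the differences of CCl4-fib were 7.03 and 7.01.

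Col4a3 and Col4a4, whose chains are best known from the kidney glomerulus, were low in HSCs and highest in NASH-fib. Col4a3 had normalized values of 35.1, 72.8 and 84.9 in HSCs and 180, 123 and 116 in CCl4-fib. NASH-fib had 1203, 354 and 598. The 3 groups did not overlap, and NASH-fib replicate 1 held more than any other library. The mean was 11.2-fold higher in NASH-fib than in HSCs (log2 fold change 3.38, SE 0.51, adjusted p = 0.00142 by limma) and 5.13-fold higher than in CCl4-fib (2.20, SE 0.51, adjusted p = 0.0257). Without NASH-fib replicate 1 the log2 fold change was 2.92 against HSCs (adjusted p = 0.00253 by limma), which still passed, and 1.74 against CCl4-fib (adjusted p = 0.0637), which did not. The call against CCl4-fib also did not pass without any one of the CCl4-fib libraries (adjusted p = 0.059 without replicate 1, 0.104 without replicate 2, 0.08 without replicate 3) or without NASH-fib replicate 3 (0.0766). The difference of CCl4-fib from HSCs, 2.18-fold, did not pass (log2 1.18, 95% interval 0.05 to 2.31, adjusted p = 0.112 by limma). An antisense transcript, C430014B12Rik, shares 563 exonic bases with Col4a3 in the gene models used and has no row of its own, and reads were counted without regard to strand, so the source of reads in that stretch cannot be told apart.

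Col4a4 had normalized values of 19.9, 2.91 and 29.9 in HSCs (17, 2 and 25 reads) and 48.4, 53.6 and 17.2 in CCl4-fib. The NASH-fib values were 129, 296 and 295. The NASH-fib libraries lay above all others, and CCl4-fib replicate 3 lay within the range of the HSCs. The mean was 13.7-fold higher in NASH-fib than in HSCs (log2 fold change 4.05, SE 0.79, adjusted p = 0.00609 by limma). Against CCl4-fib it was 6.04 times as high but did not pass (log2 2.62, SE 0.79, adjusted p = 0.0579 by limma), while edgeR and DESeq2 on recovered reads put it past the threshold (adjusted p = 0.0312 and 0.000659). In CCl4-fib against HSCs the difference did not pass (log2 1.43, 95% interval -0.31 to 3.17, adjusted p = 0.201 by limma). Without HSC replicate 2, the library with 2 reads, the log2 fold change of NASH-fib against HSCs was 3.15 (adjusted p = 0.00918 by limma). Without NASH-fib replicate 1, the lowest of its group, it was 4.44 against HSCs (adjusted p = 0.00595) and 3.02 against CCl4-fib (adjusted p = 0.0676). Within the day 11-3, the log2 difference of NASH-fib from HSC was 4.03 for Col4a3 and 5.06 for Col4a4. That of NASH-fib from CCl4-fib was 2.73 for Col4a3 and 1.40 for Col4a4 within 11-3, and 1.97 and 4.03 within 11-7.

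Col4a1 and Col4a2, the chains of nearly all basement membranes, carried most collagen IV signal in HSCs, and no difference passed for either gene. Col4a1 had normalized values of 2087, 818 and 1553 in HSCs, 1741, 2255 and 2612 in the CCl4-fib libraries and 553, 1534 and 909 in those of NASH-fib. Its CCl4-fib libraries lay above the NASH-fib libraries, and the HSC libraries overlapped both. The log2 fold change was 0.65 in CCl4-fib against HSCs (95% interval -0.36 to 1.66, adjusted p = 0.311 by limma), -0.59 in NASH-fib against HSCs (-1.61 to 0.42, adjusted p = 0.542) and -1.24 in NASH-fib against CCl4-fib (-2.26 to -0.23, adjusted p = 0.107). Without NASH-fib replicate 1, which held the least Col4a1 of all libraries, the differences of NASH-fib were -0.23 and -0.88.

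Col4a2 had 916, 569 and 495 in HSCs and 930, 1064 and 1086 in CCl4-fib. In NASH-fib it stood at 695, 525 and 374. The CCl4-fib libraries lay above all others and had the smallest spread, and the other groups overlapped. The log2 fold change was 0.69 in CCl4-fib against HSCs (95% interval -0.10 to 1.47, adjusted p = 0.177 by limma), -0.31 in NASH-fib against HSCs (-1.09 to 0.48, adjusted p = 0.731) and -0.99 in NASH-fib against CCl4-fib (-1.78 to -0.20, adjusted p = 0.101). The intervals of both genes in NASH-fib against CCl4-fib leave out 0, but neither passed over all genes.

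The nidogens, which bridge the laminin and collagen IV networks, had opposite signs in CCl4-fib. Nid1 had normalized values of 2839, 4200 and 2283 in HSCs and 2007, 1781 and 1288 in CCl4-fib. NASH-fib had 2800, 1486 and 1629. Every CCl4-fib library lay below every HSC library, but the difference did not pass (log2 -0.85, 95% interval -1.68 to -0.03, adjusted p = 0.115 by limma). The log2 difference from HSCs was -0.67 in NASH-fib (-1.50 to 0.16, adjusted p = 0.353 by limma), and NASH-fib overlapped CCl4-fib (0.19, -0.64 to 1.02, adjusted p = 0.767). Without NASH-fib replicate 1, the highest of its group, these differences were -0.95 (adjusted p = 0.122 by limma) and -0.10 (adjusted p = 0.916).

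Nid2 had normalized values of 134, 179 and 112 in HSCs and 253, 359 and 387 in CCl4-fib. The NASH-fib values were 170, 131 and 57.0. The CCl4-fib libraries lay above all others, and HSCs and NASH-fib overlapped. Nid2 was 2.79 times as high in CCl4-fib as in NASH-fib and passed the threshold narrowly (log2 difference of NASH-fib from CCl4-fib -1.59, SE 0.45, adjusted p = 0.049 by limma). That call was lost in 16 of 20 alternative fits, edgeR (adjusted p = 0.104) and DESeq2 (0.0525) among them. Within the day 11-3 the log2 difference was -0.57, and within 11-7 it was -2.15. Against HSCs the 2.35-fold difference in CCl4-fib did not pass (log2 1.23, 95% interval 0.23 to 2.23, adjusted p = 0.0664 by limma), nor did that in NASH-fib (-0.36, -1.36 to 0.64, adjusted p = 0.758). At its 3′ end Nid2 shares 386 bases with 2700060E02Rik, a gene on the opposite strand with 189 to 585 reads per library, so some reads can belong to either.

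Hspg2, the perlecan core protein, was higher in CCl4-fib than in both other groups. It had normalized values of 134, 131 and 160 in HSCs and 344, 445 and 328 in CCl4-fib. In NASH-fib it stood at 92.4, 143 and 133. The CCl4-fib libraries lay above all 6 others, which overlapped. The mean was 2.63-fold higher in CCl4-fib than in HSCs (log2 fold change 1.38, SE 0.34, adjusted p = 0.0126 by limma) and 3.03 times that of NASH-fib (log2 difference of NASH-fib from CCl4-fib -1.60, SE 0.34, adjusted p = 0.0198). Both calls were lost with the day in the labels as a term (adjusted p = 0.0764 and 0.069 by limma) and without CCl4-fib replicate 2 (0.0683 and 0.0992), and that against NASH-fib also without CCl4-fib replicate 1 or NASH-fib replicate 3 (0.0591 each). Within the day 11-3 the log2 difference of CCl4-fib was 1.39 from HSC, and within 11-4 it was 1.47. The difference of NASH-fib from CCl4-fib was -1.89 within 11-3 and -1.24 within 11-7. Between NASH-fib and HSCs the log2 difference was -0.23 (95% interval -0.98 to 0.53, adjusted p = 0.811 by limma).

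**Figure D2:**
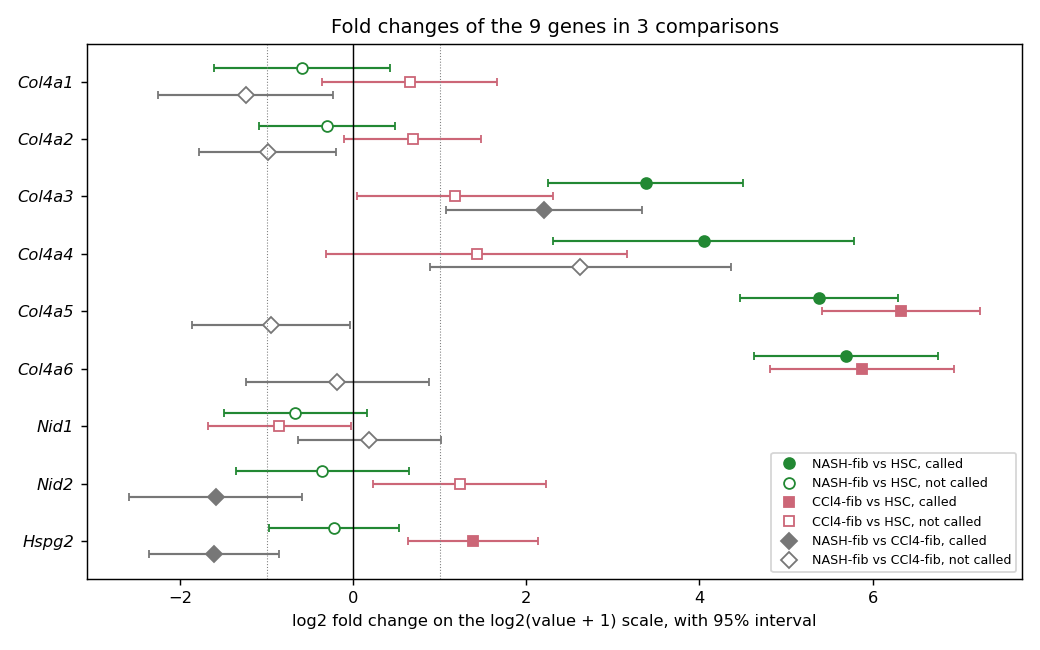
Log2 fold change of each gene, on the log2(value + 1) scale, in NASH-fib against HSC, CCl4-fib against HSC and NASH-fib against CCl4-fib; bars are 95% intervals from limma, filled symbols passed the call limits and dotted lines mark log2 values of -1 and 1. Col4a5 and Col4a6 stood at 5.38 to 6.33 against HSCs, and Col4a3 at 3.38 and Col4a4 at 4.05 in NASH-fib.

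A gene was called where limma gave an adjusted p under 0.05 and a log2 difference of 1 or more in either direction. In NASH-fib against HSCs 4 of the 9 were called higher (Col4a3, Col4a4, Col4a5 and Col4a6), when 8.23% of the 13651 genes tested were. None of the 9 was called lower by limma, none lay lower at an unadjusted p under 0.05, and edgeR and DESeq2 called 0, when limma called 4.3% of all genes lower. In CCl4-fib against HSCs 3 of 9 were higher (Col4a5, Col4a6 and Hspg2) beside 16.2% of all genes, and 0 were lower beside 11.7%. At an unadjusted p under 0.05, 1 gene, Nid1, lay lower there, and edgeR and DESeq2 again called 0. In NASH-fib against CCl4-fib 1 of 9 was higher (Col4a3) beside 4.97% of all genes, and 2 were lower (Hspg2 and Nid2) beside 5.66%. Each group serves in 2 of the 3 comparisons, so these counts are not independent of each other. All 9 genes passed the filter on low values, Col4a4, Col4a5 and Col4a6 only through the fibroblast libraries.

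The partners of a pair kept their ratio to different degrees. Col4a5 over Col4a6, per length, was 1.03, 0.797 and 1.71 in the HSC libraries, where it rests on 3 to 10 reads of each gene. It was 1.35, 1.58 and 1.57 in CCl4-fib. NASH-fib had 0.941, 0.861 and 0.833. Thus Col4a5 exceeded Col4a6 in every CCl4-fib library and lay below it in every NASH-fib library. On the log2 scale of values the ratio was 0.54 ± 0.13 (SD, n = 3) in CCl4-fib and -0.23 ± 0.09 in NASH-fib, a difference of -0.77 (SE 0.09). The two-sided exact permutation test gave p = 0.1, the smallest value that this test can give with 3 libraries against 3, so it cannot pass 0.05 here. With each library left out in turn it stayed between -0.84 and -0.73.

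Col4a1 over Col4a2, per length, was 2.22, 1.4 and 3.06 in HSCs and 1.83, 2.07 and 2.35 in CCl4-fib. In NASH-fib it was 2.85 and 2.37 in replicates 2 and 3 but 0.777 in replicate 1, the one library in which Col4a2 exceeded Col4a1. The groups overlapped in every comparison, with log2 differences of -0.29 (NASH-fib minus HSC), -0.04 (CCl4-fib minus HSC) and -0.25 (NASH-fib minus CCl4-fib) and two-sided exact permutation p of 0.7, 0.9 and 1. Without NASH-fib replicate 1 the differences of NASH-fib were 0.29 from HSC and 0.33 from CCl4-fib. The first exons of this pair share 22 bases, a small part of the 6561 and 6400 exonic bases counted. Antisense models without a row in the table share 43 exonic bases with Col4a2 (Gm15419) and 143 with Nid1 (Gm48682).

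Col4a3 over Col4a4, per length, varied most. It was 1.6, 22.7 and 2.58 in HSCs, where the highest rests on 2 reads of Col4a4. It was 3.37, 2.09 and 6.15 in CCl4-fib. The NASH-fib values were 8.45, 1.09 and 1.84. Col4a3 exceeded Col4a4 in each of the 9 libraries. The log2 differences between groups were -0.67, -0.25 and -0.42 in the same order, with SEs of 1.38, 1.14 and 0.99 and two-sided exact permutation p of 0.6, 0.9 and 0.7. Single libraries decided these values. Without NASH-fib replicate 1 the differences of NASH-fib were -1.53 from HSC and -1.28 from CCl4-fib. Without HSC replicate 2 the differences from HSC turned to 0.36 in NASH-fib and 0.79 in CCl4-fib, without CCl4-fib replicate 2 that of CCl4-fib from HSC was 0.12, and without NASH-fib replicate 2 that between the fibroblast groups was 0.20. Of the 9 ratio comparisons in all, the 1 of Col4a5 over Col4a6 between the fibroblast groups was the only one in which the libraries did not overlap. All 9 p-values were 0.1 or above before any adjustment.

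**Figure D3:**
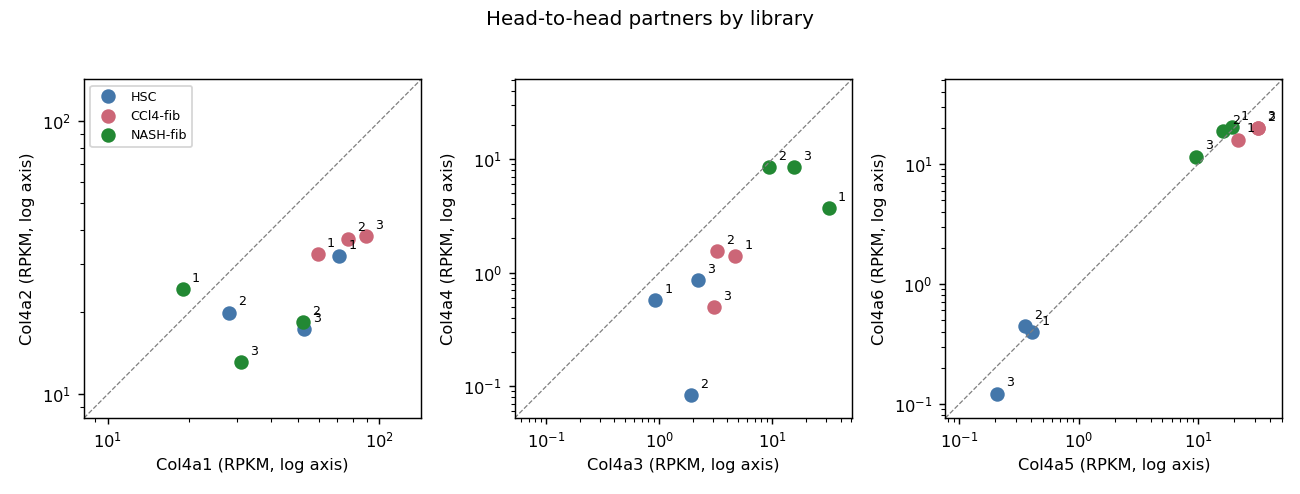
RPKM of the partners of each head-to-head pair in the 9 libraries, both axes log; points are libraries marked with their replicate number, coloured by group, and the dashed line marks equal levels. Col4a5 and Col4a6 ran along the line over the whole range, with CCl4-fib on the Col4a5 side (ratio 1.35 to 1.58) and NASH-fib on the Col4a6 side (0.833 to 0.941), and Col4a3 lay above Col4a4 in every library.

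Summed over the 6 collagen IV genes, the signal per length was 105, 50.6 and 73.6 RPKM in HSCs and 135, 171 and 182 in CCl4-fib. In NASH-fib it stood at 118, 124 and 89.3. The CCl4-fib libraries lay above all others, and HSCs and NASH-fib overlapped. The make-up of that sum also differed between the groups. Col4a1 and Col4a2 held 97.8%, 94.5% and 95.4% of it in the HSC libraries, 67.8%, 66.8% and 69.7% in CCl4-fib, but 36.7%, 57.2% and 49.3% in NASH-fib. The share of Col4a5 and Col4a6 was 0.929% ± 0.584 (SD, n = 3) in HSCs, 28.8% ± 1.41 in CCl4-fib and 28.5% ± 4.90 in NASH-fib. The share of Col4a3 and Col4a4 was 3.18% ± 1.53 in HSCs, 3.08% ± 1.31 in CCl4-fib and 23.8% ± 8.24 in NASH-fib, where the libraries held 29.9%, 14.4% and 27%. No library of NASH-fib overlapped another group in the shares of Col4a1 and Col4a2 or of Col4a3 and Col4a4. The shares restate the differences above and were not tested.

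**Figure D4:**
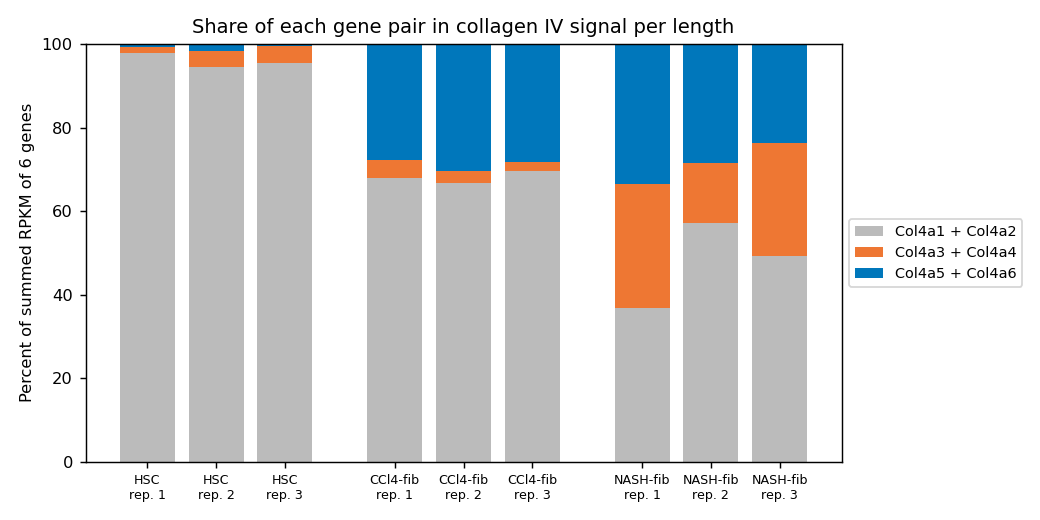
Percent of the summed RPKM of the 6 collagen IV genes held by each head-to-head pair, 1 bar per library. Col4a1 and Col4a2 held 94.5% to 97.8% in HSCs, 66.8% to 69.7% in CCl4-fib and 36.7% to 57.2% in NASH-fib, and Col4a3 and Col4a4 held 14.4% to 29.9% in NASH-fib and under 5% in the other libraries.

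Likeness between genes was measured as the root mean square difference of centred log2(value + 1) over the 9 libraries, a description in which all genes share libraries and groups. Col4a5 was the second most similar of 13650 genes to Col4a6 (difference 0.394, rank 2), and Col4a6 ranked 4 for Col4a5. The nearest gene to Col4a6 was Atp10a (0.328), with Bnc2 at rank 3 (0.444), and the nearest to Col4a5 were Vdr (0.327), Srpx (0.384) and 2610307P16Rik (0.386). Col4a4 ranked 608 for Col4a3 and Col4a3 ranked 174 for Col4a4 (1.21). Nxph1 (0.390), Prlr (0.487) and Ogn (0.499) were nearest to Col4a3, and Smad9 (0.650), Vnn1 (0.662) and Ly6c2 (0.695) to Col4a4. Col4a2 ranked 1155 for Col4a1 and Col4a1 ranked 1258 for Col4a2 (0.568), so that members of other loci lay closer than the partner: Hspg2 ranked 714 for Col4a1, and Nid2 ranked 239 and Hspg2 1035 for Col4a2. Col4a2 ranked 55 for Nid2 (0.429). For the genes that vary little, ranks are less telling, since many genes lie within a small distance. Arl6ip4 (0.165) was nearest to Col4a1, Kif20a (0.183) to Col4a2, Rab12 (0.172) to Nid1, Tmem39a (0.229) to Nid2 and Trio (0.138) to Hspg2.

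Of 32 other basement membrane components listed, 31 were in the table and 28 were tested. In NASH-fib against HSCs 11 of the 28 were higher and 4 lower, when 8.23% of all genes tested were higher and 4.3% lower, with a median log2 fold change of 1.43 beside -0.02 over all genes. In CCl4-fib 14 were higher and 4 lower, when 16.2% and 11.7% of all genes were, with a median of 1.67 beside 0.18. The 4 of 28 lower in CCl4-fib lie near the share of all genes. Egflam (pikachurin) had no read in HSCs and mean normalized values of 127 in NASH-fib and 102 in CCl4-fib, at least 33.1-fold and 26.6-fold higher against a floor of 3 reads per library. Npnt (nephronectin, an integrin ligand) had a log2 fold change of 5.98 in NASH-fib (adjusted p = 0.00143 by limma). Fbln2 (fibulin 2) had 6.69 in CCl4-fib (adjusted p = 5.48e-06 by limma), and Lamc3 (laminin γ3), with at most 3 reads in any HSC library, had mean normalized values of 380 in CCl4-fib and 36.6 in NASH-fib.

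Among the genes that fell, Lama1 (laminin α1) had log2 fold changes of -5.36 in NASH-fib and -4.38 in CCl4-fib (adjusted p = 0.000877 and 0.0018 by limma), with mean normalized values of 557 in HSCs, 12.9 and 28.1. Papln (papilin, -3.12, adjusted p = 0.0208 by limma) and Lamb1 (laminin β1, -2.17, adjusted p = 0.00054) fell in NASH-fib, and Frem1 (-2.11, adjusted p = 0.0235) and Tinagl1 (-1.66, adjusted p = 0.0319) in CCl4-fib. With 1 library left out in turn, Papln lost its call without HSC replicate 2 or 3, Frem1 without HSC replicate 1 or 2 or CCl4-fib replicate 2 or 3, and Tinagl1 without any one HSC library or CCl4-fib replicate 2 or 3. In NASH-fib against CCl4-fib 0 of the 28 were higher and 4 lower by limma, when 4.97% and 5.66% of all genes were, with a median of -0.33 beside -0.11. At an unadjusted p under 0.05, 3 lay higher, and edgeR called 0 and DESeq2 2 higher. As lower in NASH-fib edgeR called 2 and DESeq2 5. Of the 4 called by limma, Fbln2 kept its call in all 9 fits with 1 library left out. Lamb1 lost its call in 4 of those fits and Lamc3 in 2.

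**Figure D5:**
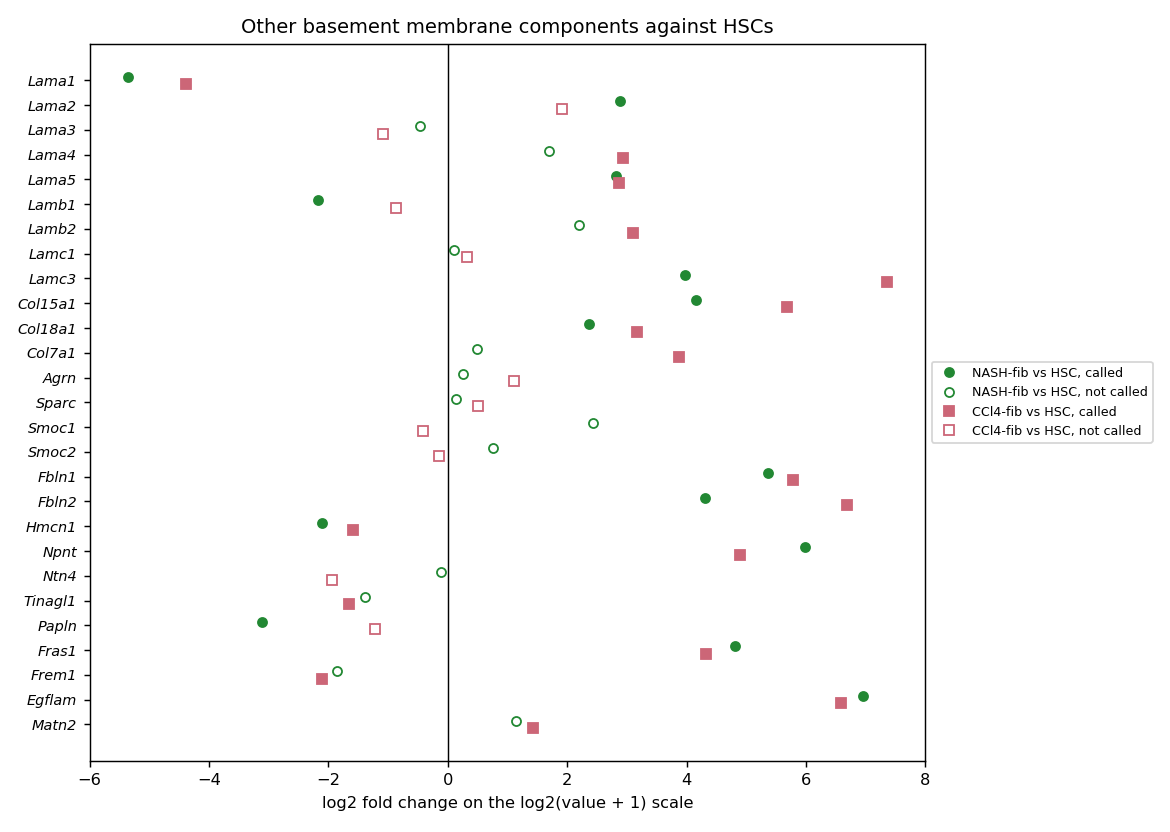
Log2 fold change, on the log2(value + 1) scale, of 27 other basement membrane components, in NASH-fib and CCl4-fib against HSC; filled symbols passed the call limits. Lama1 lay lowest in both (-5.36 and -4.38), and 10 of the genes plotted passed on the right in NASH-fib and 13 in CCl4-fib; values of genes without reads in HSCs, such as Egflam, depend on the pseudocount.

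The 20 genes listed for folding, modifying, cross-linking and otherwise assembling collagen IV were all tested. Whether they act on collagen IV or on other collagens in these cells was not tested. In CCl4-fib against HSCs 6 were higher and 0 lower by limma, when 16.2% of all genes were higher and 11.7% lower, with a median log2 fold change of 0.81 beside 0.18 over all genes. At an unadjusted p under 0.05, 1 lay lower, and edgeR and DESeq2 called 0. P3h1 (a prolyl 3-hydroxylase) had 3.14 (adjusted p = 0.00255 by limma) and Ppib (its partner cyclophilin) 2.80 (adjusted p = 0.015). The other prolyl 3-hydroxylases listed, P3h2 and P3h3, did not pass (-0.40 and 0.13, adjusted p = 0.765 and 0.84 by limma). P4ha3 (a prolyl 4-hydroxylase subunit) had no read in HSCs and normalized values of 12.7, 3.4 and 19.1 in CCl4-fib, whose mean was at least 3.07-fold higher. The call of P4ha3 was lost without any one HSC library or CCl4-fib replicate 1 or 3, and that of Ppib without CCl4-fib replicate 2. In NASH-fib against HSCs 1 was higher, Plod2 (lysyl hydroxylase, 1.61, adjusted p = 0.0401 by limma), and 1 lower, Pxdn (peroxidasin, which forms the sulfilimine cross-links of collagen IV, -1.51, adjusted p = 0.0103), with a median of 0.12 beside -0.02. These counts of 1 in 20 lie near the 8.23% and 4.3% of all genes, and the call of Plod2 was lost in 7 of the 9 fits with 1 library left out, those without HSC replicate 1 or 3, CCl4-fib replicate 1 or 2 or any one NASH-fib library. Between the fibroblast groups 4 of the 20 were lower in NASH-fib and 0 higher by limma, when 5.66% and 4.97% of all genes were, with a median of -1.04 beside -0.11. At an unadjusted p under 0.05, 0 lay higher, and edgeR and DESeq2 called 0 higher. As lower in NASH-fib edgeR called 2 and DESeq2 4. Of the 4 called by limma, P3h1 lost its call in 5 of the 9 fits with 1 library left out. Ppib lost its call there in 6 of the 9.

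Marker lists of several cell types, those of stellate cells and fibroblasts included, were compared between the groups. Over all genes tested, 16.2% were higher and 11.7% lower in CCl4-fib than in HSCs, and 8.23% and 4.3% in NASH-fib. In NASH-fib against CCl4-fib 4.97% were higher and 5.66% lower. All 14 sinusoidal endothelial markers were lower in CCl4-fib than in HSCs and 11 in NASH-fib. Between the fibroblast groups 10 of the 14 were higher in NASH-fib than in CCl4-fib and 0 lower. Their normalized values summed to 15068.4 to 23437.5 in HSCs, 497.1 to 613.2 in CCl4-fib and 1658.3 to 5548.9 in NASH-fib. Smooth muscle and mural markers were higher in 10 of 11 in CCl4-fib and 9 of 11 in NASH-fib, while Rgs5, a pericyte gene, was lower in CCl4-fib (log2 fold change -2.03, adjusted p = 0.0287 by limma, lost without HSC replicate 1 or 2 or CCl4-fib replicate 2 or 3). Rgs5 alone had normalized values of 14707.6 to 27511.4 in HSCs, 2295.5 to 13715.4 in CCl4-fib and 15987.4 to 29830.0 in NASH-fib, and the other 10 markers summed to 202.4 to 891.9, 13097.8 to 26837.8 and 11769.4 to 37654.9. Among them Casq2 was at 0 and Cnn1, Lmod1 and Cspg4 at no more than 3 reads in HSCs. All 6 mesothelial markers were higher in both fibroblast groups (sums of 601.4 to 985.4 in HSCs, 16041.5 to 22183.5 in CCl4-fib and 25119.3 to 31713.3 in NASH-fib), as were all 8 portal fibroblast markers (494.9 to 866.4, 14317.5 to 16148.9 and 10336.6 to 15512.1), of which Clec3b and Pi16 had at most 3 reads in HSCs. Of 6 cholangiocyte markers tested, 4 were higher in CCl4-fib and 6 in NASH-fib (70.14 to 250.4, 3487.6 to 4756.9 and 6066.1 to 11777.6), with the highest sum in NASH-fib replicate 1, which held the most Col4a3 of all libraries and the least Col4a4 of the NASH-fib libraries. Most of the NASH-fib sum was Spp1 alone, with mean normalized values of 6944 in NASH-fib and 1629 in CCl4-fib. Krt19 went the other way, with means of 290 in NASH-fib and 1881 in CCl4-fib. Neither difference between the fibroblast groups passed (adjusted p = 0.0561 and 0.0502 by limma). Of the 6 cholangiocyte markers tested, 2 were higher in NASH-fib than in CCl4-fib and 0 lower. The 2 were Epcam (log2 difference 3.40, adjusted p = 0.0352 by limma) and Cdh1 (3.58, adjusted p = 0.0256). Their mean normalized values were 41.6 and 119 in NASH-fib and 3.57 and 12.4 in CCl4-fib. Of 7 activated fibroblast markers, 6 were higher in CCl4-fib and 5 in NASH-fib, where Postn (periostin) was lower than in HSCs (log2 fold change -1.71, adjusted p = 0.0225 by limma, lost without HSC replicate 1 or 2 or NASH-fib replicate 2 or 3). Col1a2, whose promoter drives the GFP of the sort, is among these markers, so the sort itself favours part of this count. Acta2 is counted both here and among the smooth muscle markers. Of 10 quiescent stellate markers 8 were lower in NASH-fib and 6 in CCl4-fib. Hepatocyte markers summed to 22941.4 to 42710.9 in HSCs, 2193.5 to 3175.1 in CCl4-fib and 8021.9 to 31982.6 in NASH-fib, where 6 of 10 were higher than in CCl4-fib. Macrophage markers summed to 3505.8 to 11246.5 in HSCs, 180.2 to 267.9 in CCl4-fib and 548.6 to 2378.4 in NASH-fib, where 4 of 8 were higher than in CCl4-fib. The part of these cells in the values of the collagen IV, nidogen and perlecan genes was not tested.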

How the data were processed

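Per the labels and the study's methods, total RNA was amplified with a SMARTer kit, sequenced single-end and aligned by the authors to mm10 with STAR. The submitters' processing notes also name CASAVA. The deposited values are a signal per gene and library: by the file header, the authors counted reads of either strand on RefSeq exons with HOMER, at most 3 per position, and ran HOMER's DESeq2 comparison over 10 libraries, of which 9 were analysed here. The values of every library sum to nearly the same total, 4471988.3 to 4471994.5, as scaling to a total gives and DESeq2 size factors in general do not. Divided by the step that 1 read adds in its library, 100% of the values came out whole within rounding, and 0 value columns were left unused. The 9 genes held at most 0.0372 to 0.479 reads per exonic base, a mean over each gene taken after the limit of 3 per position. Such a mean cannot show whether single positions were cut.

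Tests used limma 3.58.1 (trend) on log2(value + 1) in 1 fit over 9 libraries with a term per group, on the 13651 genes kept by filterByExpr of edgeR 4.0.16 (minimum count 10), in R 4.3.3. The script was checked on simulated data. Pair ratios were compared with exact permutation tests (scipy 1.17.1). Since the values are not counts, edgeR and DESeq2 1.42.0 on recovered reads were alternatives, beside other pseudocounts, scalings and filters, a 2-group fit, a replicate block, the day in the labels and leaving out each library. Alternatives and call limits were set at the start. Members and gene lists were chosen with earlier results of these data known. Named were all 9 members, the 3 genes most like each, and of each pathway list up to 3 called genes per direction with the largest change against HSCs. Ddr1, Hs3st1, P3h2, P3h3, Spp1, Krt19, Epcam and Cdh1 were added after their values were seen. Intervals cover the spread between libraries, and floors counting error only. Of the basement membrane list, 1 gene is counted but not reported here.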

Additional observations from a re-analysis of the deposited data

How the results depend on the processing

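The 540 fits of single genes under alternatives (20 for each of 9 genes in 3 comparisons) kept direction and side of the threshold in 494, lost a call in 28, gained one in 11 and turned direction in 7, all 7 in differences that did not pass. The counts against HSCs stayed at 4 higher and 0 lower for NASH-fib under all alternatives run, and between 2 and 4 higher for CCl4-fib with 1 library left out, 2 with the day as a term and 4 in the 2-group fit. The counts between the fibroblast groups moved. Genes higher in NASH-fib than CCl4-fib numbered 2, with Col4a4 added, under a pseudocount of 5, TMM or upper-quartile CPM, edgeR, DESeq2 and the 2-group fit, and 0 with the replicate block. With 1 library left out they numbered 0 to 2: 0 without any one CCl4-fib library or without NASH-fib replicate 1 or 3, and 2 without HSC replicate 2 or 3. Genes lower in NASH-fib numbered 1, Hspg2, under a pseudocount of 0.5, TMM or upper-quartile CPM, edgeR, DESeq2, no filter, the 2-group fit and the replicate block, 0 with the day in the labels as a term, and 0 to 2 with 1 library left out (0 without CCl4-fib replicate 1 or 2 or NASH-fib replicate 3). The call of Nid2 in CCl4-fib against HSCs was gained in the 2-group fit and without NASH-fib replicate 1 or 3 (adjusted p = 0.0289, 0.0365 and 0.0384 by limma). The cause was not tested in any of these.

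Ratio differences that turned direction were those of Col4a1/Col4a2 with 1 library left out (-0.33 to 0.23 for CCl4-fib minus HSC, -0.64 to 0.29 for NASH-fib minus HSC, -0.61 to 0.33 for NASH-fib minus CCl4-fib) and of Col4a3/Col4a4 (-0.94 to 0.79, -1.53 to 0.36 and -1.28 to 0.20 in the same order, and 0.009 for CCl4-fib minus HSC with a pseudocount of 5). Of single genes, Col4a2 in NASH-fib against HSCs turned to 0.089 with the day as a term, and Col4a6 in NASH-fib against CCl4-fib to 0.000 with TMM, 0.044 with edgeR and 0.032 with DESeq2. With 1 library left out, Nid2 ran from -0.68 to 0.10 in NASH-fib against HSCs, and Col4a6 from -0.34 to 0.07 and Nid1 from -0.10 to 0.36 in NASH-fib against CCl4-fib.

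In NASH-fib against CCl4-fib the median log2 fold change of all genes was -0.11, with 678 genes higher and 773 lower. Other scalings in limma gave 0.07, 808 and 696 (TMM) and -0.01, 773 and 792 (upper quartile). edgeR and DESeq2, which change the test as well as the scaling, gave 0.14, 802 and 563, and 0.12, 1518 and 1161. With the day as a term those calls numbered 344 and 249, and against HSCs 549 and 119 in NASH-fib (1124 and 587 without it) and 1422 and 1054 in CCl4-fib (2209 and 1592 without it).

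Replicate numbers did not pair the samples: deviations of same-numbered libraries correlated between -0.473 and 0.514. With the replicate block Col4a3 lost its call against CCl4-fib (adjusted p = 0.0527 by limma) and Nid2 its own (0.076), and no other member's call changed. Depth limits Col4a5 and Col4a6 in HSCs, at 3 to 10 reads, and Col4a4 there, at 2 to 25.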

Other observations

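Heparan sulfate chains, which perlecan carries, are built by polymerases and sulfotransferases and trimmed by sulfatases and heparanase. Of 23 such genes listed, 21 were tested, and 4 were higher and 3 lower in each fibroblast group than in HSCs, when limma called 8.23% of all genes higher and 4.3% lower in NASH-fib and 16.2% and 11.7% in CCl4-fib. In CCl4-fib these counts of 4 and 3 in 21 lie near the shares of all genes. The list's median log2 fold change was -0.05 in NASH-fib and 0.70 in CCl4-fib, beside -0.02 and 0.18 over all genes tested. The 6-O-endosulfatases, which edit finished chains at the cell surface, were higher: Sulf1 had log2 fold changes of 5.15 in NASH-fib and 4.05 in CCl4-fib (adjusted p = 0.000119 and 0.000307 by limma), with mean normalized values of 154 in HSCs, 4835 and 2174. Sulf2 had 3.69 and 4.85 (adjusted p = 0.00015 and 2.86e-05 by limma). Hs6st2, a 6-O-sulfotransferase, had no read in HSCs and was at least 6.11-fold higher in CCl4-fib, where its normalized values were 16.7, 31.5 and 21.9. In NASH-fib they were 72.1, 2.67 and 11.8, and the bound of 7.55-fold rests on replicate 1: without it the bound was 1.89-fold, and the call was lost without HSC replicate 1 or 3 or NASH-fib replicate 3. The fourth was Hs3st1 (3.35 and 4.03). Hs3st3b1, a 3-O-sulfotransferase, fell from a mean normalized value of 5686 in HSCs to 184 in NASH-fib and 183 in CCl4-fib (log2 fold changes of -4.93 and -5.07, adjusted p = 7.25e-05 and 4.17e-05 by limma). Hs3st3a1 (-3.0 and -5.32) and Hpse, heparanase (-3.17 and -4.86), also passed in both, though Hs3st3a1 lost its call in NASH-fib without HSC replicate 1 or 2 or NASH-fib replicate 2 or 3. Between the fibroblast groups 1 of the 21, Hpse, was higher in NASH-fib and 0 were lower by limma, when 4.97% and 5.66% of all genes were. The count of 1 in 21 lies near the share of all genes. Hpse had a log2 difference of 1.70 (adjusted p = 0.037 by limma). Its call was lost in 6 of the 9 fits with 1 library left out, those without HSC replicate 1, any one CCl4-fib library or NASH-fib replicate 1 or 3. At an unadjusted p under 0.05, 3 lay lower, and edgeR called 0 and DESeq2 2 lower.

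Of 13 receptors for basement membrane proteins, 4 were higher and 2 lower in each fibroblast group than in HSCs, with medians of 0.63 in NASH-fib and 0.48 in CCl4-fib, against -0.02 and 0.18 over all genes tested. Over all genes 8.23% were higher and 4.3% lower in NASH-fib, and 16.2% and 11.7% in CCl4-fib, so the 2 of 13 lower in CCl4-fib lie near the share of all genes. The 4 were Bcam, a laminin α5 receptor (log2 fold changes of 4.25 in NASH-fib and 4.14 in CCl4-fib, adjusted p = 0.00277 and 0.00194 by limma), Itga7, a laminin-binding integrin subunit (3.88 and 4.27, adjusted p = 0.00323 and 0.00116), Itgb4, an integrin subunit of hemidesmosomes, and Ddr1, a collagen receptor (1.82 and 3.75, adjusted p = 0.0126 and 0.000115). Itgb4 had at most 3 reads in any HSC library and mean normalized values of 11.96 in NASH-fib and 53.4 in CCl4-fib, and its call in NASH-fib was lost in 8 of the 9 fits with 1 library left out, all but that without HSC replicate 2. Itga1, a collagen IV-binding integrin subunit, fell by 1.58 on the log2 scale in NASH-fib and by 2.85 in CCl4-fib (adjusted p = 0.0177 and 0.000371 by limma), and Itgb3 by 2.72 and 2.67 (adjusted p = 0.00579 and 0.00373). In NASH-fib the call of Itga1 was lost without HSC replicate 1 or 2 or NASH-fib replicate 3, and that of Ddr1 without NASH-fib replicate 2. In NASH-fib against CCl4-fib 1 receptor was higher and 1 lower, when 4.97% and 5.66% of all genes were. The median was -0.04 beside -0.11, and these counts of 1 in 13 lie near the shares of all genes.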
